A study of Mus musculus with 12 samples.

Results

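The genes described are 45 interferon-induced genes of the mouse, measured by RNA sequencing of hindlimb tissue in 12 libraries. They were chosen by symbol from the deposited table of 45777 genes. The rule itself uses no measured value, but the list was drawn up with earlier results of these data known. All 45 passed the filter on low counts that left 19740 genes for testing. By role they comprise 12 type I antiviral genes (the Ifit, Oas, Mx and Isg15 genes), 10 interferon-gamma GTPases (Igtp, Tgtp1, Irgm1, Irgm2, 5 Gbp genes and Iigp1), 4 transcription factors, 7 sensors and regulators, 3 antigen processing genes, 2 chemokines and 7 other effectors. The labels give 3 groups of 4 libraries: lymphedema (LE), lymph node transfer (VLNT), and the transfer combined with ABTAA (VtA). The antibody ABTAA is known to bind angiopoietin-2 and to activate Tie2, a receptor of endothelial cells. The labels give no strain, sex, age or time, and leave unsaid whether the VLNT and VtA limbs also carried lymphedema and whether each replicate was its own animal. P-values therefore measure only how far these libraries spread, a spread that may be technical.

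Interferons are secreted proteins that cells release on sensing foreign or misplaced nucleic acid, or, for interferon-gamma, that T and NK cells release on activation. Type I interferons signal through Ifnar1 and Ifnar2 to a complex that holds Stat2 and Irf9 and binds the interferon-stimulated response element (ISRE) of antiviral genes such as Isg15, Mx1 and the Ifit and Oas genes. Interferon-gamma signals through Ifngr1 and Ifngr2, acts at gamma-activated sites (GAS) in promoters and induces Irf1, the chemokines Cxcl9 and Cxcl10, the immunoproteasome and the large GTPases that attack vacuoles holding intracellular pathogens. The programs overlap, since many of these genes answer to both kinds of interferon. In skin and muscle both resident and infiltrating cells can express them.

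Promoters of 7 members are shown to set the upstream motifs of antiviral genes and GTPases side by side. RefSeq promoters (250 bases before each annotated start, GRCm38.p6) were at hand for 33 of the 45 members. The searched motifs were the ISRE core GAAANNGAAA, read on the other strand as TTTCNNTTTC, and GAS as TTCNNNGAA, which reads the same on both strands. Each line below gives the 110 bases before the start, written 5′ to 3′ along the gene, with motif matches in capitals; adjoining capitals can hold overlapping matches.
Isg15: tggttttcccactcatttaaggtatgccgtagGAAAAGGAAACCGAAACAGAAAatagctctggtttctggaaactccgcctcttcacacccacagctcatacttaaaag
Ifit1: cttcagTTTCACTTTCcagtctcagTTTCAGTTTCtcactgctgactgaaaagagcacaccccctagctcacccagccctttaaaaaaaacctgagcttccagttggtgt
Gbp2: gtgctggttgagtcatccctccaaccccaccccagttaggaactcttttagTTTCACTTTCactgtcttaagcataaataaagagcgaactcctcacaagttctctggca
Irgm1: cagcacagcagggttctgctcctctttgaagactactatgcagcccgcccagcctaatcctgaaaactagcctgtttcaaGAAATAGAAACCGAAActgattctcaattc
Igtp: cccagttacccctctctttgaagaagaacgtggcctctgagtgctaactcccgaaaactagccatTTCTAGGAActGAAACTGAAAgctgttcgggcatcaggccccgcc
Irgm2: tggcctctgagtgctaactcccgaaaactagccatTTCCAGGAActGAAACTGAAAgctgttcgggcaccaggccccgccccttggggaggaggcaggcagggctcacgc
Tgtp1: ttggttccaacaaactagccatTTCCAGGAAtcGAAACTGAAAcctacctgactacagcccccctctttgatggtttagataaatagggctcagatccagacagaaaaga
The windows lie at chr4:156200819-156200928 on the minus strand for Isg15, chr19:34640779-34640888 on the plus strand for Ifit1, chr3:142620553-142620662 on the plus strand for Gbp2, chr11:48871421-48871530 on the minus strand for Irgm1, chr11:58199446-58199555 on the plus strand for Igtp, chr11:58214867-58214976 on the plus strand for Irgm2 and chr11:48992247-48992356 on the minus strand for Tgtp1. An ISRE core was present in 6 of 9 antiviral promoters and in 8 of 8 GTPase promoters, against 936 of 27025 genes in the promoter table (3.46%). GAS was present in 2 of 9 antiviral and 5 of 8 GTPase promoters, against 8.13% of all genes. Both motifs occurred in 1 of 9 antiviral and 5 of 8 GTPase promoters, against 0.4% of all genes. The classes were not tested against each other. In Igtp, Irgm2 and Tgtp1 the GAS match stood 2 bases before an ISRE core, and in Bst2 it stood 3 bases before one. A match is a description of letters and not of a bound site. Igtp, Irgm2 and Tgtp1 lie on chromosome 11, as does Irgm1, whose window holds the ISRE core alone.

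Library totals ranged from 56042030 to 72540147 counts, and TMM scaling factors from 0.676 in LE4 to 1.67 in LE2. The hindlimb pieces differed in tissue makeup. The summed level of 15 keratinocyte markers was 24.5 CPM (counts scaled to a common, TMM-adjusted library size) in LE4 and 46.4 CPM in VtA1, against 20740 to 46450 CPM in LE1 to LE3, 14210 to 28630 CPM in VLNT and 1216 to 7812 CPM in VtA2 to VtA4. Krt6a, Krt16, Ivl and Dsg3 had 0 counts in LE4, and Dsg3 had 0 in VtA1. The 15 skeletal muscle markers summed to 8502 CPM in LE2 and 319600 CPM in LE4, to 40180 to 192700 CPM in VLNT and to 166200 to 294300 CPM in VtA. Against the mean of LE2 to LE4, LE1 was higher for short transcripts and lower for long ones. Its median log2 ratio was 0.68 over the 4499 genes with the shortest transcripts and -0.87 over the 4495 with the longest (91.1% of tested genes had a length). The other libraries were not examined in this way, and LE2 to LE4 differed in tissue makeup. In bulk tissue, fewer cells of a type and less RNA per cell cannot be told apart.

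Per length of transcript, Ifitm3, a membrane protein that blocks viral entry, had the highest level of the members, with a median of 201 TPM over the 12 libraries. Ifi27l2a, a small interferon-induced protein, followed at 43.8 TPM and Psmb8, an immunoproteasome subunit, at 28.2 TPM. The lowest medians were 0.645 TPM for Mx2 and 0.792 TPM for Oas3. Among the GTPases the medians ran from 2.495 TPM (Gbp5) to 14.1 TPM (Irgm1), and among the antiviral genes up to 7.58 TPM (Isg15). On the log2 CPM scale, the antiviral genes varied more between libraries than the GTPases. The median range of a gene over the 12 libraries was 3.33 for antiviral genes and 1.84 for GTPases. Within VtA the median SD of a gene was 0.60 for antiviral genes and 0.28 for GTPases, and within LE 1.39 and 0.73.

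**Figure D1:**
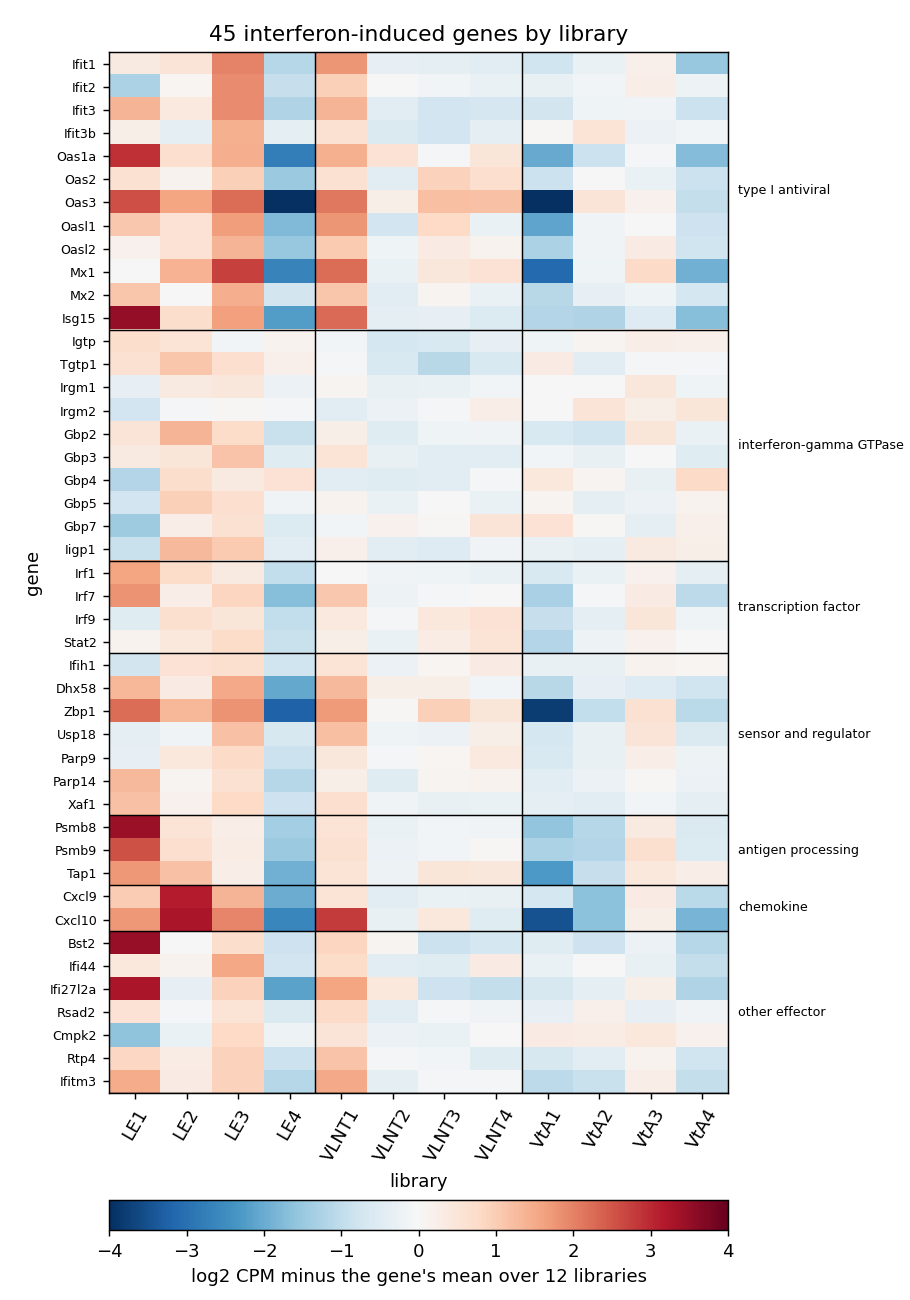
Log2 CPM of each of the 45 genes (rows, by role) minus that gene's mean over the 12 libraries (columns, by group); colours end at 4 in either direction, beyond which Oas3 in LE4 and VtA1, with 0 counts, is drawn at the end colour. LE4 was the lowest LE library for 36 of the 45 genes, and VLNT1 was the highest VLNT library for 39 of 45.

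The libraries that set the members' levels were few. LE4 was the lowest of the LE libraries for 36 of 45 members, VLNT1 the highest of VLNT for 39, and VtA3 the highest of VtA for 34, while VtA1 was the lowest of VtA for 24. LE1 was split. It held the highest value of all 12 libraries for 14 members, among them Isg15, Bst2, Ifi27l2a and Psmb8, and the lowest for 8 members, among them Iigp1, Gbp4, Gbp5, Gbp7, Irgm1 and Irgm2. The 14 had a median longest transcript of 2367 bases and the 8 one of 3787 bases. The part of transcript length in these values was not tested.

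Class means were taken within each library. The mean log2 CPM of the 12 antiviral genes was 3.03, 2.501, 3.695 and 0.12 in LE1 to LE4, 3.41, 1.72, 2.09 and 1.995 in VLNT1 to VLNT4, and 0.40, 1.78, 2.01 and 0.96 in VtA1 to VtA4. For the 10 GTPases it was 3.47, 4.49, 4.35 and 3.60 in LE, 3.80, 3.43, 3.44 and 3.65 in VLNT, and 3.81, 3.65, 3.88 and 3.89 in VtA. The antiviral score thus averaged 2.33 ± 1.56 over LE (SD, n = 4), 2.30 ± 0.75 over VLNT and 1.29 ± 0.74 over VtA, and the GTPase score 3.98 ± 0.52, 3.58 ± 0.18 and 3.81 ± 0.11. The difference within a library, antiviral minus GTPase, lay between -1.70 and -0.39 in VLNT and between -3.41 and -1.87 in VtA, so these groups did not overlap. LE covered both ranges, from -3.48 in LE4 to -0.45 in LE1. Except for genes at or near 0 counts, a difference within a library does not depend on the scaling factor of that library. Oas3, at 0 counts in LE4 and VtA1, entered the antiviral mean at -5.098 in each. That value is set by the prior count added before taking logs. No test was made of these scores, because the members were chosen with results of these libraries known.

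**Figure D2:**
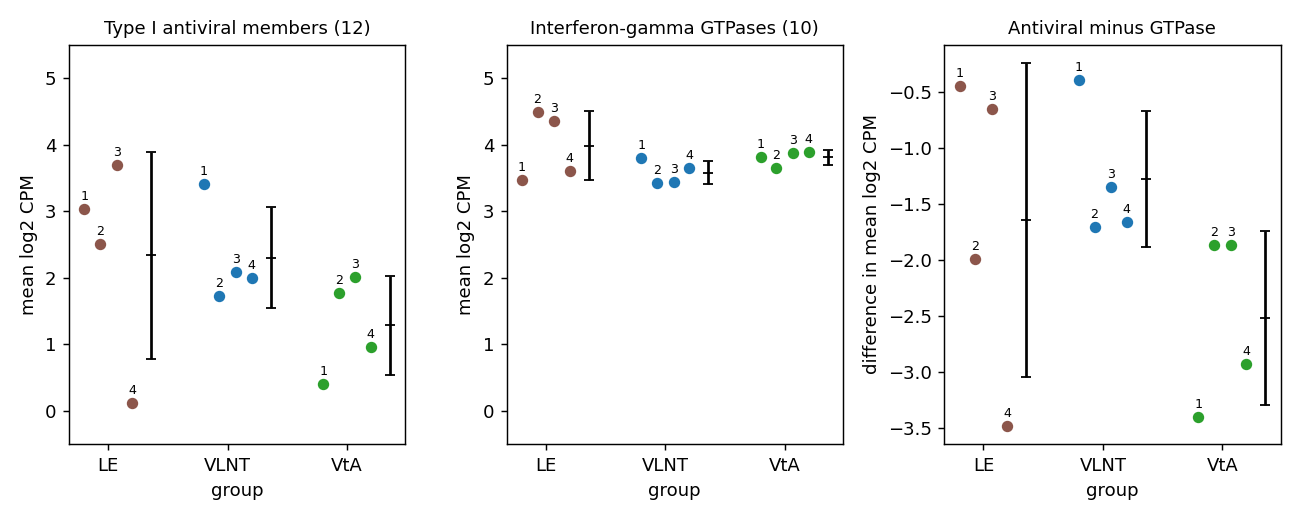
Mean log2 CPM of 12 antiviral genes (left) and 10 GTPases (middle) and their difference (right) in each library, numbered by replicate within LE, VLNT and VtA; black bars show the group mean and SD (n = 4). The GTPase means of VtA lie within 3.65 to 3.89 while the antiviral means of VtA spread from 0.40 to 2.01.

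The interferons themselves were barely detected. Of 21 ligand genes, 15 had 0 counts in all 12 libraries, Ifnb1 among them, and 0 of 21 passed the filter for testing. At the limit that a count of 0 allows, 3 counts, the level is 0.0292 to 0.0755 CPM by library, which covers counting error only. Ifng, made by T and NK cells, had 12, 54, 11 and 0 counts in LE1 to LE4, 0 in each VLNT library, and 0, 0, 2 and 0 in VtA1 to VtA4. The LE libraries with Ifng counts were thus LE1 to LE3. Ifnk, a type I interferon of keratinocytes, had 50 counts in VLNT1, 5 in VLNT2 and 2 in LE2. VLNT1 was also the highest VLNT library for 11 of the 12 antiviral genes and for 8 of 9 B and plasma cell markers. Jchain, the joining chain of secreted antibodies, was at 32.6 CPM in VLNT1 and at 0.155 to 4.45 CPM in the other libraries, and the mean log2 CPM of the B and plasma cell markers was 2.09 in VLNT1 and between -1.38 and 0.86 elsewhere. With Sdc1 included, which keratinocytes also express, these markers summed to 313 CPM in VLNT1 and to 169 to 289 CPM in VLNT2 to VLNT4, and Cr2 was at 0 counts in VLNT3 and VLNT4. The part of these markers in the VLNT1 values was not tested.

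Receptors and signalling genes were detected in every library, except Ifnlr1 and Socs1 with 0 counts in VtA1, and 0 of 15 passed the edgeR test in any comparison. Ifnar1, a chain of the type I receptor, was at 56.9, 33.7, 35.003 and 15.5 CPM in LE1 to LE4, at 29.8, 34.0, 35.5 and 25.8 CPM in VLNT1 to VLNT4 and at 17.7, 23.3, 25.9 and 23.4 CPM in VtA1 to VtA4. Ifngr1, a chain of the interferon-gamma receptor, was at 58.0, 43.4, 54.1 and 34.9 CPM in LE1 to LE4, at 53.7, 46.5, 65.7 and 55.95 CPM in VLNT1 to VLNT4 and at 35.3, 43.0, 60.8 and 42.8 CPM in VtA1 to VtA4. LE4 was the lowest LE library for each of these genes and VtA1 the lowest VtA library, and the 3 groups overlapped.

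Each of the 4 transcription factors among the members was lowest of LE in LE4, lowest of VtA in VtA1 and highest of VtA in VtA3. Irf1, induced mainly by interferon-gamma, was at 67.1, 37.8, 28.9 and 11.4 CPM in LE1 to LE4, at 22.3, 20.6, 20.2 and 19.0 CPM in VLNT1 to VLNT4 and at 14.9, 18.7, 25.8 and 17.4 CPM in VtA1 to VtA4. Its highest value was in LE1 and its VLNT values lay within a narrow band. Irf7, which amplifies type I interferon production, was at 37.6, 12.8, 19.6 and 3.30 CPM in LE1 to LE4, at 22.7, 9.33, 10.3 and 10.7 CPM in VLNT1 to VLNT4 and at 4.33, 10.4, 13.4 and 5.20 CPM in VtA1 to VtA4. Stat2, a subunit of the type I complex, was at 20.8, 24.9, 30.9 and 10.01 CPM in LE1 to LE4, at 21.95, 15.6, 22.8 and 27.0 CPM in VLNT1 to VLNT4 and at 8.26, 16.2, 21.0 and 18.4 CPM in VtA1 to VtA4. Irf9, the DNA-binding subunit of that complex, was at 11.3, 24.7, 22.2 and 8.03 CPM in LE1 to LE4, at 21.1, 15.1, 21.5 and 23.7 CPM in VLNT1 to VLNT4 and at 8.41, 12.2, 22.1 and 14.2 CPM in VtA1 to VtA4. Irf7 peaked in LE1, Stat2 in LE3 and Irf9 in LE2, and for these 3 genes LE4 and VtA1 were the lowest of all libraries.

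Among the antiviral genes, Isg15 had the widest difference between VtA and LE. Isg15, a ubiquitin-like modifier, was at 51.4, 7.34, 14.01 and 0.929 CPM in LE1 to LE4, at 21.5, 3.42, 3.53 and 3.10 CPM in VLNT1 to VLNT4 and at 1.96, 1.93, 3.16 and 1.36 CPM in VtA1 to VtA4. LE1 and VLNT1 were far above their groups, and LE4 lay below every other library. Without VLNT1 the remaining VLNT values, 3.10 to 3.53 CPM, still overlapped VtA by a small margin, since VtA3 was at 3.16 CPM.

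Members of the Ifit family, which bind foreign RNA and block its translation, shared the high LE3 and VLNT1 libraries. Ifit1 was at 7.08, 7.94, 21.9 and 2.49 CPM in LE1 to LE4, at 18.9, 4.37, 4.33 and 4.15 CPM in VLNT1 to VLNT4 and at 3.15, 4.58, 6.43 and 1.91 CPM in VtA1 to VtA4. Ifit3 was at 27.4, 13.9, 39.3 and 4.56 CPM in LE1 to LE4, at 27.1, 7.93, 6.16 and 6.67 CPM in VLNT1 to VLNT4 and at 6.396, 9.37, 9.52 and 5.85 CPM in VtA1 to VtA4. In both genes VLNT2 to VLNT4 lay close together and VLNT1 stood well above them. Ifit3b, a near-identical copy of Ifit3, ranged from 3.33 to 15.2 CPM, and reads of the copies may have been split between them.

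Oas enzymes make 2-5A, the messenger that activates RNase L, and Oasl2 is a relative of theirs. Oas1a was at 32.8, 6.97, 12.01 and 0.613 CPM in LE1 to LE4, at 11.6, 6.56, 4.10 and 6.09 CPM in VLNT1 to VLNT4 and at 1.06, 2.38, 4.22 and 1.29 CPM in VtA1 to VtA4. Oas2 was at 12.9, 9.31, 16.3 and 2.94 CPM in LE1 to LE4, at 12.7, 6.04, 15.9 and 13.4 CPM in VLNT1 to VLNT4 and at 4.56, 8.47, 6.91 and 4.57 CPM in VtA1 to VtA4. Oasl2 was at 12.5, 16.5, 27.98 and 3.80 CPM in LE1 to LE4, at 22.6, 9.70, 13.8 and 12.01 CPM in VLNT1 to VLNT4 and at 4.53, 9.86, 13.8 and 6.28 CPM in VtA1 to VtA4. LE4 was the lowest of all libraries for the 3 genes. Oas3 had 0 counts in LE4 and VtA1 and reached 7.36 CPM in LE1.

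Mx1, a dynamin-like GTPase against influenza-type viruses, was at 1.503, 3.99, 10.3 and 0.211 CPM in LE1 to LE4, at 7.18, 1.27, 2.09 and 2.28 CPM in VLNT1 to VLNT4 and at 0.151, 1.34, 2.62 and 0.378 CPM in VtA1 to VtA4. Its values below 0.4 CPM were those of LE4, VtA1 and VtA4. Rsad2 (viperin), which makes a chain-terminating nucleotide, was at 9.04, 5.91, 8.93 and 4.08 CPM in LE1 to LE4, at 10.4, 4.39, 5.73 and 5.47 CPM in VLNT1 to VLNT4 and at 4.86, 7.07, 4.81 and 5.46 CPM in VtA1 to VtA4. Its spread over the libraries was small beside that of Mx1.

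**Figure D3:**
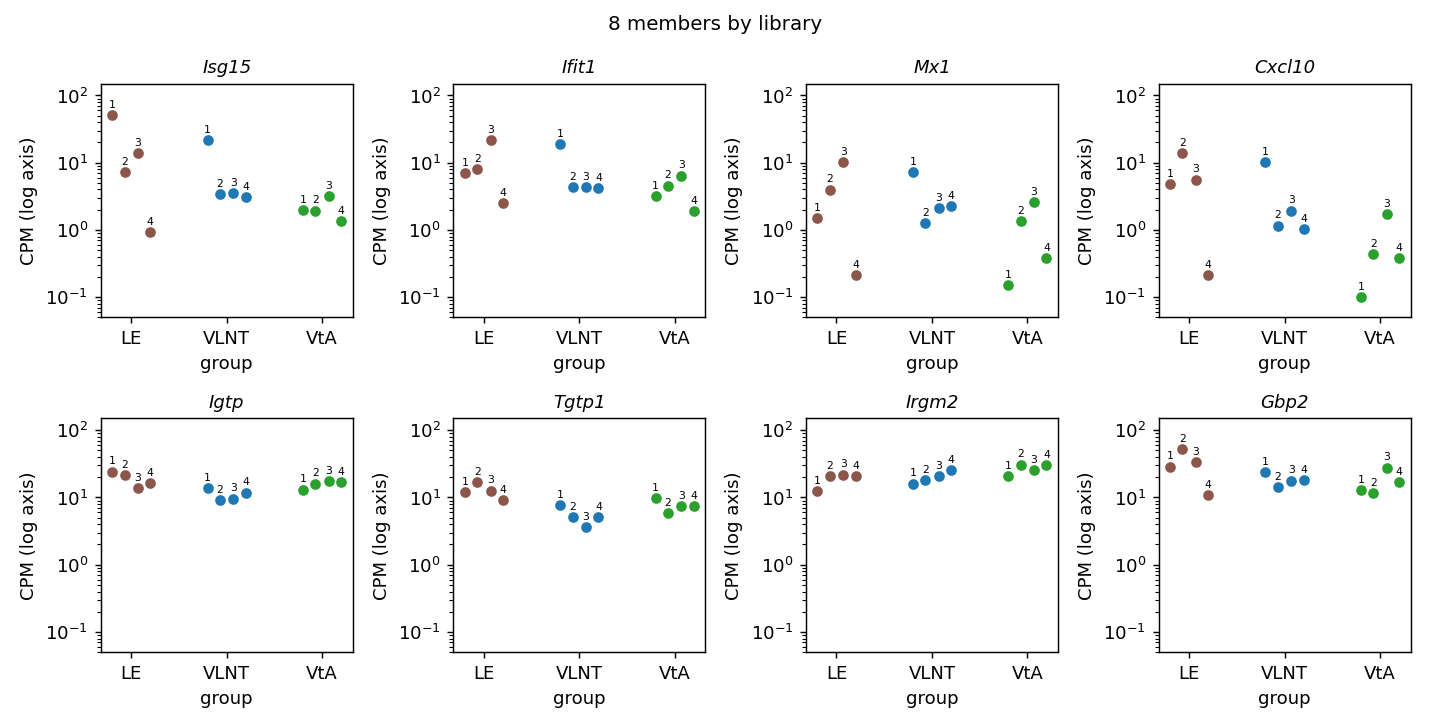
CPM on a log axis of 4 genes with wide spread (Isg15, Ifit1, Mx1, Cxcl10; top) and 4 GTPases (Igtp, Tgtp1, Irgm2, Gbp2; bottom) in each library of LE, VLNT and VtA, numbered by replicate. Top-row genes drop below 1 CPM or to 1.91 CPM (Ifit1) in single libraries, whereas the GTPases stay at 3.61 CPM or above.

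The GTPases were more even across libraries. Igtp (Irgm3), a regulator of the immunity-related GTPases, was at 24.2, 21.7, 13.8 and 16.2 CPM in LE1 to LE4, at 13.7, 9.08, 9.65 and 11.8 CPM in VLNT1 to VLNT4 and at 13.1, 16.1, 17.7 and 17.05 CPM in VtA1 to VtA4. Tgtp1 (Irgb6), an effector of the same family, was at 12.1, 16.99, 12.7 and 9.04 CPM in LE1 to LE4, at 7.61, 5.17, 3.61 and 5.12 CPM in VLNT1 to VLNT4 and at 9.80, 5.92, 7.51 and 7.503 CPM in VtA1 to VtA4. For both genes every LE library lay above every VLNT value: the lowest LE value of Igtp was 13.8 CPM against a highest VLNT value of 13.7 CPM, and that of Tgtp1 was 9.04 CPM against 7.61 CPM. This separation rested on the TMM scaling: with library totals alone, a setting chosen after seeing the data, and in TPM, LE and VLNT overlapped for both genes. Tgtp2, a near-identical copy of Tgtp1 with which reads may be shared, was at 12.4, 21.1, 18.8 and 9.08 CPM in LE1 to LE4, at 11.8, 6.81, 4.57 and 6.397 CPM in VLNT1 to VLNT4 and at 11.4, 6.63, 10.4 and 8.996 CPM in VtA1 to VtA4. Its LE and VLNT values overlapped.

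Irgm1 and Irgm2 guard host membranes against the effector GTPases. Irgm1 was at 16.2, 25.8, 27.4 and 17.3 CPM in LE1 to LE4, at 21.7, 16.4, 16.6 and 18.5 CPM in VLNT1 to VLNT4 and at 20.6, 20.6, 27.6 and 17.8 CPM in VtA1 to VtA4. Irgm2 was at 12.5, 20.8, 21.9 and 20.8 CPM in LE1 to LE4, at 16.1, 18.2, 20.6 and 25.5 CPM in VLNT1 to VLNT4 and at 20.9, 30.7, 25.3 and 30.01 CPM in VtA1 to VtA4. LE1 was the lowest library for both, and the VtA values of Irgm2 overlapped those of VLNT.

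Guanylate-binding proteins coat the vacuoles of bacteria and parasites. Gbp2 was at 28.8, 52.0, 33.7 and 10.8 CPM in LE1 to LE4, at 23.8, 14.2, 17.8 and 18.2 CPM in VLNT1 to VLNT4 and at 13.0, 11.6, 27.9 and 16.7 CPM in VtA1 to VtA4. Iigp1 (Irga6), the best studied effector of the immunity-related family, was at 11.01, 50.03, 42.4 and 14.9 CPM in LE1 to LE4, at 23.5, 15.4, 14.4 and 18.5 CPM in VLNT1 to VLNT4 and at 16.7, 15.5, 26.5 and 24.4 CPM in VtA1 to VtA4. LE2 was the highest library for both genes. The other Gbp genes ranged from 2.99 to 24.7 CPM.

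Cxcl9 and Cxcl10 recruit activated T cells through the receptor Cxcr3. Cxcl9 was at 6.70, 29.4, 8.53 and 0.803 CPM in LE1 to LE4, at 4.84, 2.36, 2.70 and 2.67 CPM in VLNT1 to VLNT4 and at 1.99, 1.03, 4.13 and 1.55 CPM in VtA1 to VtA4. Cxcl10 was at 4.82, 14.04, 5.62 and 0.211 CPM in LE1 to LE4, at 10.3, 1.16, 1.95 and 1.02 CPM in VLNT1 to VLNT4 and at 0.101, 0.441, 1.71 and 0.378 CPM in VtA1 to VtA4. LE2, the library with the most Ifng counts, was the highest for both chemokines, and LE4 was the lowest for Cxcl9 and VtA1 for Cxcl10. Cxcl10 overlaps the gene Art3 in the annotation, so reads of both genes may be mixed; how the counting used strand was not stated in the sources at hand.

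Each of the 7 sensors and regulators had its lowest value in LE4 or VtA1. Dhx58 (LGP2), which regulates the RNA sensors, was at 7.77, 3.87, 8.73 and 0.718 CPM in LE1 to LE4, at 7.53, 3.63, 3.61 and 2.84 CPM in VLNT1 to VLNT4 and at 1.41, 2.43, 2.11 and 1.75 CPM in VtA1 to VtA4. Each VtA value of Dhx58 lay below each VLNT value, the closest being 2.43 CPM in VtA2 and 2.84 CPM in VLNT4. Zbp1, a sensor of Z-form nucleic acid, ranged from 0.252 CPM in VtA1 to 18.2 CPM in LE1, whereas Ifih1 (MDA5), a sensor of long double-stranded RNA, ranged only from 6.80 CPM in LE4 to 18.5 CPM in LE3. Usp18, which removes Isg15 from proteins, ranged from 2.59 to 9.72 CPM.

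All 3 antigen processing genes had their highest value in LE1. Psmb8 was at 208, 27.4, 22.9 and 7.29 CPM in LE1 to LE4, at 27.3, 15.6, 17.6 and 17.001 CPM in VLNT1 to VLNT4 and at 6.30, 8.60, 24.4 and 12.8 CPM in VtA1 to VtA4. Tap1, a subunit of the peptide transporter, was at 85.5, 57.9, 30.6 and 6.80 CPM in LE1 to LE4, at 37.3, 22.3, 35.6 and 35.4 CPM in VLNT1 to VLNT4 and at 5.19, 13.5, 34.7 and 31.1 CPM in VtA1 to VtA4. In Psmb8 the LE1 value was far above the other 11 libraries, whereas in Tap1 it was 85.5 CPM against 57.9 CPM in LE2.

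The 7 other effectors included Bst2 and Ifitm3. Bst2 (tetherin), which holds budding virus at the cell surface, was at 173, 15.2, 25.3 and 8.75 CPM in LE1 to LE4, at 28.02, 16.8, 8.55 and 9.54 CPM in VLNT1 to VLNT4 and at 11.004, 8.72, 13.2 and 6.99 CPM in VtA1 to VtA4. Ifitm3 was at 199, 90.0, 136 and 32.6 CPM in LE1 to LE4, at 206, 55.1, 69.6 and 68.2 CPM in VLNT1 to VLNT4 and at 35.1, 38.9, 85.3 and 37.4 CPM in VtA1 to VtA4. Bst2 in LE1 was far above every other library, and VLNT1 and LE1 were the highest libraries for Ifitm3.

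After lymph node transfer, against lymphedema, 36 of the 45 members had lower fitted values, with a median log2 fold change of -0.45, and the GTPases Tgtp1 and Igtp had the smallest p-values. Of all 19740 genes, 48.7% were lower and the median was 0.01. edgeR's quasi-likelihood test with Benjamini-Hochberg adjustment over all genes called 0 of 19740 genes at an adjusted p under 0.05 (0% called), so 0 members passed. At an unadjusted p under 0.05, 27 genes were higher and 369 lower (1.87% of those tested), of which 4 were members, all lower. DESeq2 called 1 gene (0.0052% of those tested) and 0 members, and limma-voom with library weights called 1362 genes and 8 members. With TMM scaling the groups did not overlap for 2 members, Tgtp1 and Igtp, both lower in VLNT, against 0.177% of all genes; with library totals alone and in TPM 0 members were lower without overlap, against 0.117% and 0.0608%.

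By role, 8 of 10 GTPases were lower (median -0.60) and 11 of 12 antiviral genes (median -0.38), as were both chemokines and 3 of 3 antigen processing genes. Tgtp1 had a log2 fold change of -1.24 ± 0.31 (SE; edgeR unadjusted p = 0.00177, adjusted p = 1.000). By unadjusted p it had rank 3 among all genes. Igtp had a log2 fold change of -0.78 ± 0.26 (SE; edgeR unadjusted p = 0.0106, adjusted p = 1.000). Neither gene changed sign when any 1 library was left out, with ranges of -1.45 to -1.09 for Tgtp1 and -0.91 to -0.64 for Igtp. The other 6 members with the smallest p were Cxcl9 (-1.85 ± 0.80 SE), Bst2 (-1.82 ± 0.81), Psmb8 (-1.78 ± 0.84), Irf1 (-0.82 ± 0.42), Gbp2 (-0.76 ± 0.43) and Gbp4 (-0.63 ± 0.38), in log2 units. Several of these turned on 1 library. Without LE1, Bst2 was at -0.06 and Psmb8 at 0.02, and without LE2, Cxcl9 was at -0.79. Without LE1, Irf1 was at -0.34. The 8 members called by limma-voom, all lower, were Tgtp1, Igtp, Gbp2, Gbp3, Gbp5, Iigp1, Ifit3 and Cxcl9, 6 of them GTPases, against 0.562% of all genes called lower; it gave LE1 and LE4 weights of 0.0983 and 0.104. The antiviral median was not stable: it was -0.95 without VLNT1 and 0.15 without LE3, and -0.03 on log2(TPM + 0.5), where the median of all genes was 0.29. The GTPase median kept its sign in all of these settings, at -0.73, -0.39 and -0.29.

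Tissue and immune cell markers are given beside these values. Of 15 keratinocyte markers 10 were higher (median 0.33), and of 16 macrophage and monocyte markers 9 were higher (median 0.12). Of 16 T and NK cell markers 12 were lower (median -0.72), as were 8 of 9 neutrophil markers (median -2.56). The neutrophil sums were 12320, 1068, 1544 and 1.42 CPM in LE1 to LE4 and 50.8 to 792 CPM in VLNT. Their mean log2 CPM was 1.88 ± 3.84 (SD) over LE and 1.69 ± 1.42 over VLNT. For the T and NK cell markers it was -0.03 ± 2.24 and 0.28 ± 0.44. The T and NK sums were 11.9 to 108 CPM in LE and 22.8 to 49.1 CPM in VLNT, and Cd3d, Cd3g, Cd8a and Nkg7 were at 0 counts in LE4. Cd28 and Cd247, also on that list, were at 7.92 and 3.30 CPM in LE4, where the list summed to 11.9 CPM. For Cd28 this was the highest value of all libraries. The part of the tissue and immune cell markers in the GTPase values was not tested. With the keratinocyte score as a covariate the GTPase median was -0.62, and with the muscle score -0.22.

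Between the transfer with ABTAA and the transfer alone, 11 of 12 antiviral genes had lower fitted values, with a median log2 fold change of -0.98. Of 10 GTPases, 7 had higher values with a median of 0.23, but with library totals alone and on log2(TPM + 0.5) 7 had lower ones. Over all genes 53.3% were lower, 46.7% higher, and the median was -0.07. edgeR's test called 0 of 19740 genes (0% called) and 0 members; at an unadjusted p under 0.05, 60 genes were higher and 1058 lower (5.36% of those tested), of which 0 were members. DESeq2 called 152 genes (0.786% of those tested were called lower) and 0 members, and limma-voom called 3606 genes and 4 members. VLNT enters this comparison as it does the preceding one, so the values of the GTPases in the 2 comparisons share those libraries. The groups did not overlap for 1 member, Dhx58, against 8.32% of all genes that were lower without overlap. Dhx58 also separated the groups with library totals alone and in TPM, where 4 and 5 members in all were lower without overlap, against 14.3% and 16.4% of all genes.

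In single genes, Cxcl10 had a log2 fold change of -2.44 ± 1.16 (SE; edgeR unadjusted p = 0.0575, adjusted p = 0.653). Igtp, in the other direction, had 0.53 ± 0.26 (SE; edgeR unadjusted p = 0.0609, adjusted p = 0.653). Oas2 had -0.97 ± 0.48 (SE; edgeR unadjusted p = 0.0667, adjusted p = 0.653). Oas1a was at -1.66 ± 0.86 (SE), Isg15 at -1.91 ± 0.98, Dhx58, which regulates RNA sensing, at -1.19 ± 0.61, Ifitm3 at -1.02 ± 0.58 and Oasl1 at -1.31 ± 0.76. VLNT1 carried much of these differences: without it Isg15 was at -0.67, Ifitm3 at -0.39, Oasl1 at -0.66 and Cxcl10 at -1.05, and the antiviral median was -0.56. Igtp ranged from 0.45 to 0.65 over the libraries left out, but was at 0.06 with library totals alone and 0.03 on log2(TPM + 0.5). limma-voom called Igtp (0.70), Gbp4 (0.73) and Irgm2 (0.52) higher, against 8.25% of all genes, and Oas1a (-1.55) lower, against 10% of all genes.

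The sign of the GTPase median rested on the scaling. It was 0.23 with TMM, -0.23 with library totals alone and -0.27 on log2(TPM + 0.5), while the median of all genes moved to -0.53 and -0.47. Relative to the median of all genes it was 0.29, 0.30 and 0.21. The antiviral median minus the GTPase median was -1.20, and it lay between -1.41 and -0.88 when any 1 library was left out. It was -1.15 without LE4 and VtA1, a setting chosen after seeing the data.

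Tissue markers moved with this contrast. All 15 keratinocyte markers were lower in VtA (median -2.40, 11 of 15 without overlap), 8 of 8 fibroblast markers (median -1.34) and 15 of 16 macrophage and monocyte markers (median -1.14) were lower, and 15 of 15 skeletal muscle markers were higher (median 1.12). T and NK cell markers summed to 22.8 to 49.1 CPM in VLNT and 8.31 to 30.2 CPM in VtA, with Cd3e, Cd3g, Cd8a and Nkg7 at 0 counts in VtA1. Cd28 and Cd247, also on that list, were at 4.15 and 3.17 CPM in VtA1, where the list summed to 8.31 CPM. Cd28 was at 1.86, 3.07, 2.58 and 6.98 CPM in VLNT1 to VLNT4. With the keratinocyte score as a covariate the antiviral median was -0.02, with 6 of 12 genes lower, and the GTPase median 0.46. The muscle score as a covariate gave -0.21 and 0.43. The antiviral minus GTPase difference was then -0.49 and -0.64. The keratinocyte score was 9.06 to 9.82 in VLNT and -0.22 to 7.71 in VtA. The muscle score was 10.7 to 12.75 in VLNT and 12.8 to 13.4 in VtA. Since neither score overlapped between these groups, the covariate fits cannot tell tissue makeup from treatment. The part of the tissue and immune cell markers in the antiviral minus GTPase difference was not tested.

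**Figure D4:**
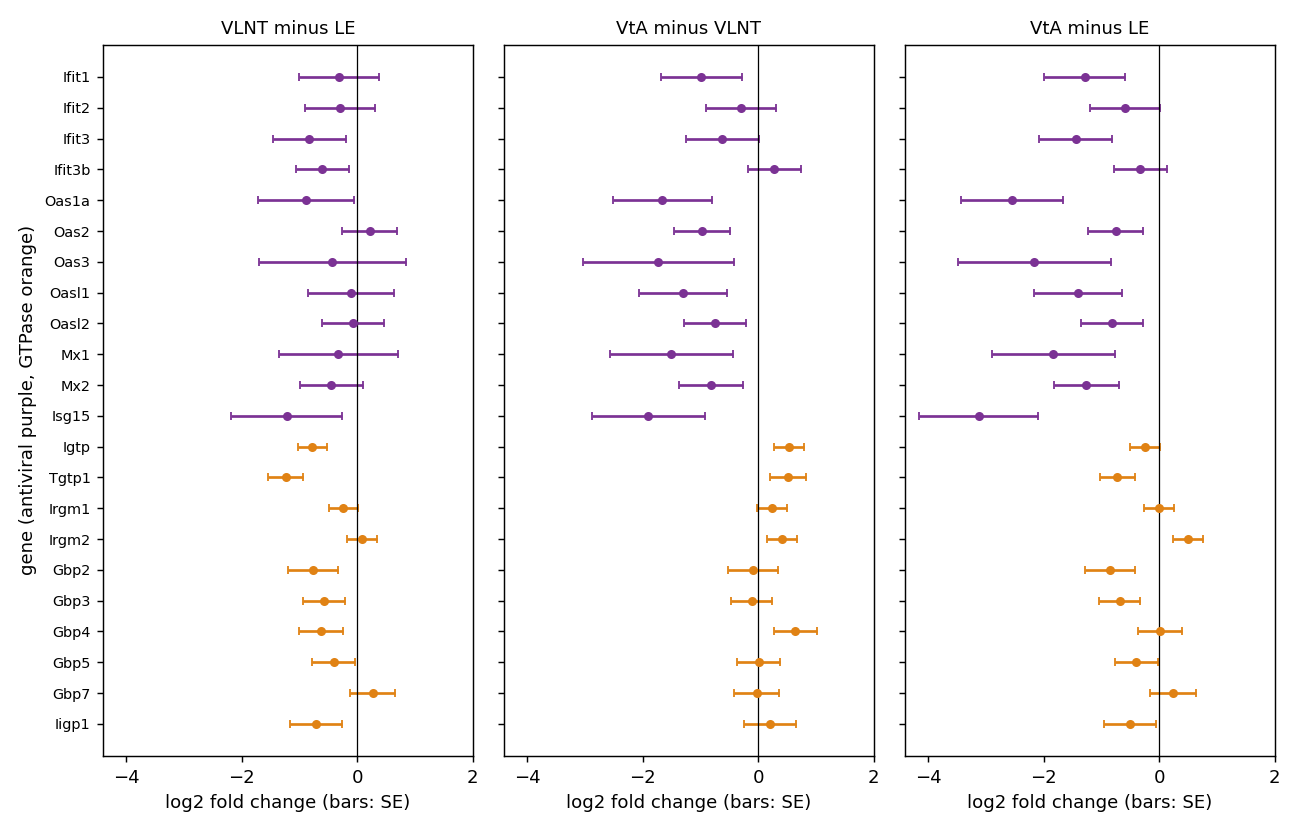
Log2 fold changes (edgeR, bars are SE) of the 12 antiviral genes (purple) and 10 GTPases (orange) in the comparisons VLNT minus LE, VtA minus VLNT and VtA minus LE. Of the antiviral points 11 of 12 lie left of 0 in the middle panel, whereas 7 of 10 GTPase points lie right of 0 with the TMM scaling drawn and 3 of 10 with library totals alone.

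Between the transfer with ABTAA and lymphedema, 41 of the 45 members had lower fitted values (median log2 fold change -0.84), including 12 of 12 antiviral genes (median -1.35) and 7 of 10 GTPases (median -0.32), against 54.4% of all genes and a median of -0.11. edgeR's test again called 0 of 19740 genes (0% called) and 0 members. At an unadjusted p under 0.05, 600 genes were higher and 2656 lower (13.5% of those tested), and 10 members were lower, to be read against that background. The groups overlapped for each of the 45 members, whereas 1.27% of all genes were lower without overlap (1.03% with library totals alone and 0.729% in TPM, with 0 members in either). DESeq2 called 797 genes, among them 5 members, all lower: Isg15, Bst2, Cxcl9, Cxcl10 and Oas1a, where 4.03% of all genes were called lower. limma-voom called 10639 genes, with 35 members lower and 1, Irgm2, higher, where 25.9% of all genes were called lower and 28% higher.

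Isg15 had a log2 fold change of -3.13 ± 1.03 (SE; edgeR unadjusted p = 0.0104, adjusted p = 0.287). Bst2 had -2.48 ± 0.83 (SE; edgeR unadjusted p = 0.0118, adjusted p = 0.287). Cxcl9 had -2.38 ± 0.82 (SE; edgeR unadjusted p = 0.0134, adjusted p = 0.287). The other members with the smallest p were Oas1a (-2.55 ± 0.88 SE), Psmb8 (-2.35 ± 0.86), Cxcl10 (-3.22 ± 1.20), Tgtp1 (-0.73 ± 0.31) and Dhx58 (-1.45 ± 0.62), in log2 units. Without LE1, Bst2 was at -0.72, Psmb8 at -0.56, Isg15 at -1.82 and Oas1a at -1.54, and without LE2, Cxcl9 was at -1.33. Without LE4 edgeR called 6288 genes and 21 members, all lower, where 16.5% of all genes were called lower, and the antiviral median was -1.72 and that of all genes -0.27. Among the 21 were Isg15, Ifit3, Oas1a, Oas2, Mx2, Gbp2, Gbp3, Tgtp1, Cxcl9, Cxcl10, Irf1, Irf7, Psmb8 and Psmb9. Without both LE4 and VtA1, chosen after seeing the data, 4004 genes and 10 members were called, all lower: Isg15, Oas1a, Oas3, Bst2, Cxcl9, Cxcl10, Psmb8, Irf1, Zbp1 and Dhx58, where 9.25% of all genes were called lower. No GTPase was among these 10.

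Here too the tissue markers differed. In VtA against LE 15 of 15 keratinocyte markers, 14 of 16 macrophage and monocyte markers (median -1.18) and 14 of 16 T and NK cell markers (median -2.15) were lower, and 14 of 15 muscle markers were higher. Summed T and NK markers were 43.5 to 108 CPM in LE1 to LE3, 11.9 CPM in LE4 and 8.31 to 30.2 CPM in VtA. With the keratinocyte score as a covariate the antiviral median was -0.65 and the GTPase median -0.21. With the muscle score they were -0.10 and 0.18. The part of the tissue and immune cell markers in these values was not tested.

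Other genes of the interferon pathway were counted from lists beside the members, and edgeR called 0 of them in any comparison. Of 56 tested other interferon-induced genes, 40 were lower in VLNT than in LE (median -0.17), 43 lower in VtA than in VLNT (median -0.49) and 45 lower in VtA than in LE (median -0.66), with 2, 3 and 12 lower at an unadjusted p under 0.05 (3.57%, 5.36% and 21.4% of the 56, against 1.87%, 5.36% and 13.5% of all genes). The smallest p belonged to Tgtp2 (-1.05 ± 0.37) and Nmi (-1.28 ± 0.58), to Samhd1, a nucleotide hydrolase that restricts viruses (-0.97 ± 0.37), and Slfn9 (-1.99 ± 0.82), and to Slfn2 (-3.71 ± 1.10) and Isg20, an exonuclease (-1.82 ± 0.59), in the 3 comparisons in turn. LE1 was far above all other libraries for Nmi and Slfn2. Nmi was at 48.5 CPM in LE1 and at 8.17, 13.0 and 6.19 CPM in LE2 to LE4. Slfn2 was at 279 CPM in LE1 and at 22.7, 34.7 and 2.43 CPM in LE2 to LE4. Between VtA and VLNT, 6 of the 56 were lower without overlap (10.7%, against 8.32% of all genes), namely Samhd1, Slfn9, Herc6, Adar, Oas1g and Parp11. In the other direction 1 of the 56, Gbp9, was higher without overlap, against 1477 of all 19740 genes.

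Of 18 tested sensors and adaptors, 9 were lower in VLNT than in LE, 17 lower in VtA than in VLNT (median -0.74) and 17 lower in VtA than in LE (median -1.05). Their smallest p values were those of Irf3 (-0.67 ± 0.41) and Irf8 (-0.62 ± 0.42), of the DNA sensor Cgas (-1.80 ± 0.76) and the adaptor Myd88 (-1.13 ± 0.55), and of Irf8 (-1.29 ± 0.43) and Tmem173, which encodes STING (-1.30 ± 0.52). Irf3 was at 90.2 CPM in LE1 and at 30.1, 24.5 and 22.3 CPM in LE2 to LE4. Irf8 was at 25.6 CPM in LE1 and at 10.1, 13.6 and 6.36 CPM in LE2 to LE4. Between VtA and VLNT, 4 of the 18 were lower without overlap, namely Cgas, Ddx58, Tlr8 and Tlr9 (22.2%, against 8.32% of all genes).

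Class I antigen presentation genes beside the members were lower in 14, 15 and 16 of 17 in the 3 comparisons, with medians of -0.29, -0.32 and -0.82. Psmb10, another immunoproteasome subunit (-2.19 ± 0.85 in VLNT minus LE), and Psme2, a proteasome activator (-1.58 ± 0.77), led VLNT minus LE and also VtA minus LE (-2.45 ± 0.86 and -2.29 ± 0.79). LE1 was far above all other libraries for both genes. Psmb10 was at 200 CPM in LE1 and at 14.5, 15.9 and 11.3 CPM in LE2 to LE4. Psme2 was at 451 CPM in LE1 and at 60.8, 55.6 and 24.2 CPM in LE2 to LE4. Tapbpl (-0.71 ± 0.35) and Pdia3 (-0.95 ± 0.56) led VtA minus VLNT. Of the receptor and signalling genes, Stat3 (0.46 ± 0.33) and Tyk2 (0.35 ± 0.29) had the smallest p in VLNT minus LE. Ptpn1, a phosphatase of the receptor kinases, and Socs3, a feedback inhibitor, had the smallest in VtA minus VLNT (-0.63 ± 0.32 and -1.71 ± 0.86) and in VtA minus LE (-0.66 ± 0.32 and -1.94 ± 0.87). In log2 units Ifnar1 was at -0.17 ± 0.34 (SE), -0.47 ± 0.34 and -0.65 ± 0.34 in the 3 comparisons, and Ifngr1 at 0.22 ± 0.26, -0.29 ± 0.26 and -0.07 ± 0.26.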

How the data were processed

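Polyadenylated RNA of flash-frozen hindlimb tissue was extracted with Trizol and made into libraries with a stranded TruSeq kit, per the labels' protocols. The submitters' processing notes name HISAT2 2.1.0, StringTie 2.1.3b, Trimmomatic and bcl2fastq 2.20.0, and mm10 among the builds. Of the counting method, its strand setting and multiply mapped reads the sources used here say nothing. The authors' deposited table holds raw read counts per gene, per the file headers, and TPM values scaled by the authors for transcript length and total; the deposited FPKM values were not used. All 12 libraries matched a column by name.

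Counts were tested with edgeR 4.0.16 (R 4.3.3): TMM scaling, the default filter on low counts, quasi-likelihood tests of 3 comparisons in 1 fit of all 12 libraries, and Benjamini-Hochberg adjustment over 19740 genes, called under 0.05. Levels are CPM on TMM-adjusted totals; log2 CPM scores used a prior count of 2. SE were taken from the test statistic. All tests were two-sided, and the fit was tested on simulated data. Alternatives were DESeq2 1.42.0, limma-voom with library weights (limma 3.58.1), limma on log2(TPM + 0.5) and log2(TPM + 0.1), other scalings and filters, covariates, a replicate block, and each library left out.

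The members, lists and rules were chosen with earlier results of these data known. For each comparison, the 8 members with the smallest unadjusted p are given with fold changes. The values of every library are given for 20 set members and for the first 4 of these 8. Irf9, Irgm2 and Dhx58 fall outside this rule and are also given in every library. Of each other pathway list, the 2 genes with the smallest p are named. In the main fit the libraries were not paired by replicate number. Correlations of same-numbered libraries' deviations ran from -0.43 to 0.56. Because the libraries differ in tissue makeup, these values cannot settle whether same-numbered libraries belong together. Of the members, 14 overlap another annotated gene, and reads of such genes may be mixed. Promoters and transcript names came from RefSeq (GRCm38.p6), transcript lengths from GENCODE.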

Additional observations from a re-analysis of the deposited data

Results flagged for a closer look

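Among the 147 sets of 4 libraries examined, of which 135 were a member in a group, 10 values of log2 CPM stood apart from the other 3 libraries of their group by Dixon's test, where chance alone gives about 5%. The sets share the same 12 libraries and the members vary together: VLNT1 was the highest VLNT library for 39 of 45. The number of values therefore cannot be compared with that share, and no single one can be told from chance. In LE these were Oas3 in LE4 (-5.10, at 0 counts, nearest library 1.88), Zbp1, a sensor of Z-form nucleic acid, in LE4 (-1.29, nearest 3.28) and Irgm2 in LE1 (3.64, nearest 4.38). In VLNT, 5 members were high in VLNT1: Ifit1 (4.25, nearest 2.14), Ifit3 (4.76, nearest 2.99), Isg15 (4.43, nearest 1.83), Irf7 (4.51, nearest 3.42) and Gbp3 (3.93, nearest 3.08). VLNT1 was also the library with 50 of the 57 Ifnk counts and with the highest mean log2 CPM of the B and plasma cell markers (2.09, against at most 0.86 elsewhere); their part in these values was not tested. Tap1 was low in VLNT2 (4.48, nearest 5.14). In VtA, Ifitm3 was high in VtA3 (6.42, nearest 5.28), the VtA library with the highest keratinocyte marker sum, 7812 CPM.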

How the results depend on the processing

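Numbers of calls depended most on the test and on LE4. In VLNT minus LE, DESeq2 called 1 gene and limma-voom 1362 genes with 8 members. In VtA minus VLNT, DESeq2 called 152 genes, limma-voom 3606 with 4 members, a fit of only the groups compared 1, and the fit without LE4 and VtA1 1. In VtA minus LE, DESeq2 called 797 genes with 5 members, limma-voom 10639 with 36, and the fit without LE4 and VtA1 4004 with 10. The members' median in VtA minus VLNT moved from -0.52 to 0.17 with the keratinocyte score as a covariate and to -1.01 on log2(TPM + 0.1). Cxcl9 in VtA minus LE was at 0.034 with the muscle score as a covariate. The cause was not tested. Leaving out each library in turn gave 0 called genes and members in VLNT minus LE, 0 to 10 genes and 0 members in VtA minus VLNT, and 0 to 6288 genes and 0 to 21 members in VtA minus LE. Psmb8 in VLNT minus LE ranged from -2.15 to 0.017. The members' medians ranged from -0.83 to -0.08, -0.84 to -0.19 and -1.17 to -0.64 in the 3 comparisons, and the antiviral minus GTPase difference from -0.22 to 0.54, -1.41 to -0.88 and -1.34 to -0.55. With the replicate number as a block, 0 genes were called in each comparison and the members' medians were -0.28, -0.45 and -0.73. Every named member kept its direction in that fit. Whether the numbers pair the libraries is not known. The scalings of the total and of DESeq2, and the library totals alone, changed no call; nor did the filters. At 0 to 3 counts per library, most interferon ligands are beyond what this depth resolves.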
